A study of Mus musculus with 22 samples.

Results

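Lypd8, Zg16 and Retnlb encode proteins that reach the gut lumen or the mucus and hold bacteria away from the intestinal epithelium. The 3 genes were chosen by symbol, as a group of shed or secreted barrier proteins, from the 46603 genes of the deposited tables, and each symbol matched 1 row. Their RNA was measured in intestinal tissue of male wild-type C57BL/6 mice, an inbred strain, that were 7 weeks old at the start and ate their diets for 7 weeks. The comparisons ask how PFOS (perfluorooctanesulfonic acid, a persistent fluorinated surfactant) and the kind of dietary fibre bear on this tissue, alone and in combination.

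Pectin_PFOS mice (n = 4 libraries) ate pectin, a fermentable plant cell wall fibre, and received PFOS. Inulin_PFOS mice (n = 3) ate inulin, a fermentable fructan, and received PFOS. PFOS mice (n = 4) ate cellulose, which gut bacteria ferment poorly, and received PFOS. Pectin (n = 4), Inulin (n = 3) and Control (n = 4, cellulose) mice ate the matching diets without PFOS. All diets held 8% fibre by weight, with fat for 35% of the energy, protein for 20% and carbohydrate for 45%. The PFOS dose was 3 µg per day and kg of body weight, taken with the drinking water. A treatment field of all 22 samples mentions PFOS, so exposure was read from the group name in each title. The titles call the libraries of a group biological replicates and do not say whether a library pools animals, so p-values measure the spread between these libraries.

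The intestine keeps most of its bacteria at a distance through mucus, antimicrobial proteins and immunoglobulin A. Lypd8 is a glycosylphosphatidylinositol-anchored protein of the Ly6/uPAR family that enterocytes shed into the lumen, where it binds flagella and slows motile bacteria. Zg16 is a lectin-like protein of goblet cells that binds the cell wall of Gram-positive bacteria and clumps them in the mucus. Retnlb (RELM-beta) is a resistin-like protein that goblet cells secrete, induced by bacterial colonisation and by interleukin-4 and interleukin-13, and it damages bacterial membranes. In mice Lypd8, Zg16 and Retnlb are best known from the colon.

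Library totals lay between 17613322 and 20261370 counts, and 15763 genes passed the filter on low counts. Mitochondrial genes took 2.85% to 14.9% of the counts, scaling factors by the trimmed mean of M values (TMM) ran between 0.749 and 1.22, and Pectin_PFOS replicate 1 had both the lowest factor and the fewest genes with at least 10 counts (12927). The gut segment is not given in the sources used here. Fabp6, the bile acid binding protein of the ileum, was at 1428 to 5063 CPM (counts per 1000000 after TMM scaling) in every library. Of the markers of the distal colon, Hoxd12 had 0 counts in 22 libraries, Hoxd13 in 21, Hoxb13 in 20 and the water channel gene Aqp8 in 14. Markers of the proximal small intestine varied within groups. Lct (lactase) reached 397 CPM in PFOS replicate 4, 99.0 and 27.7 CPM in Pectin_PFOS replicates 3 and 4 and 23.2 CPM in Pectin replicate 2, and stayed at or below 5.15 CPM in the other libraries. Gata4, a transcription factor of the proximal gut, was likewise highest in Pectin_PFOS replicates 3 and 4 (52.1 and 25.1 CPM), PFOS replicate 4 (32.2 CPM) and Pectin replicate 2 (17.6 CPM). The part of gut position in the results below was not tested. In bulk tissue, fewer cells of a type and less RNA per cell cannot be told apart.

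All 3 genes passed the filter, Retnlb only through the libraries where it was high. Compared per transcript length, Zg16 was the most abundant, with 4642 to 13362 TPM (transcripts per 1000000) and a rank between 8 and 29 among all genes of a library. Lypd8 had 525.62 to 4951 TPM and a rank between 19 and 268. Retnlb had 0 to 33.1 TPM, with at least 10 counts in 8 of 22 libraries. The ratio of Zg16 to Lypd8 in TPM was 1.59 to 2.88 in Pectin_PFOS, 2.14 to 5.19 in Inulin_PFOS and 6.82 to 15.1 in PFOS, so that neither fibre group with PFOS overlapped the PFOS group. Without PFOS the same ratio was 1.12 to 7.44 in Pectin, 3.75 to 9.12 in Inulin and 6.08 to 15.3 in Control.

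**Figure D1:**
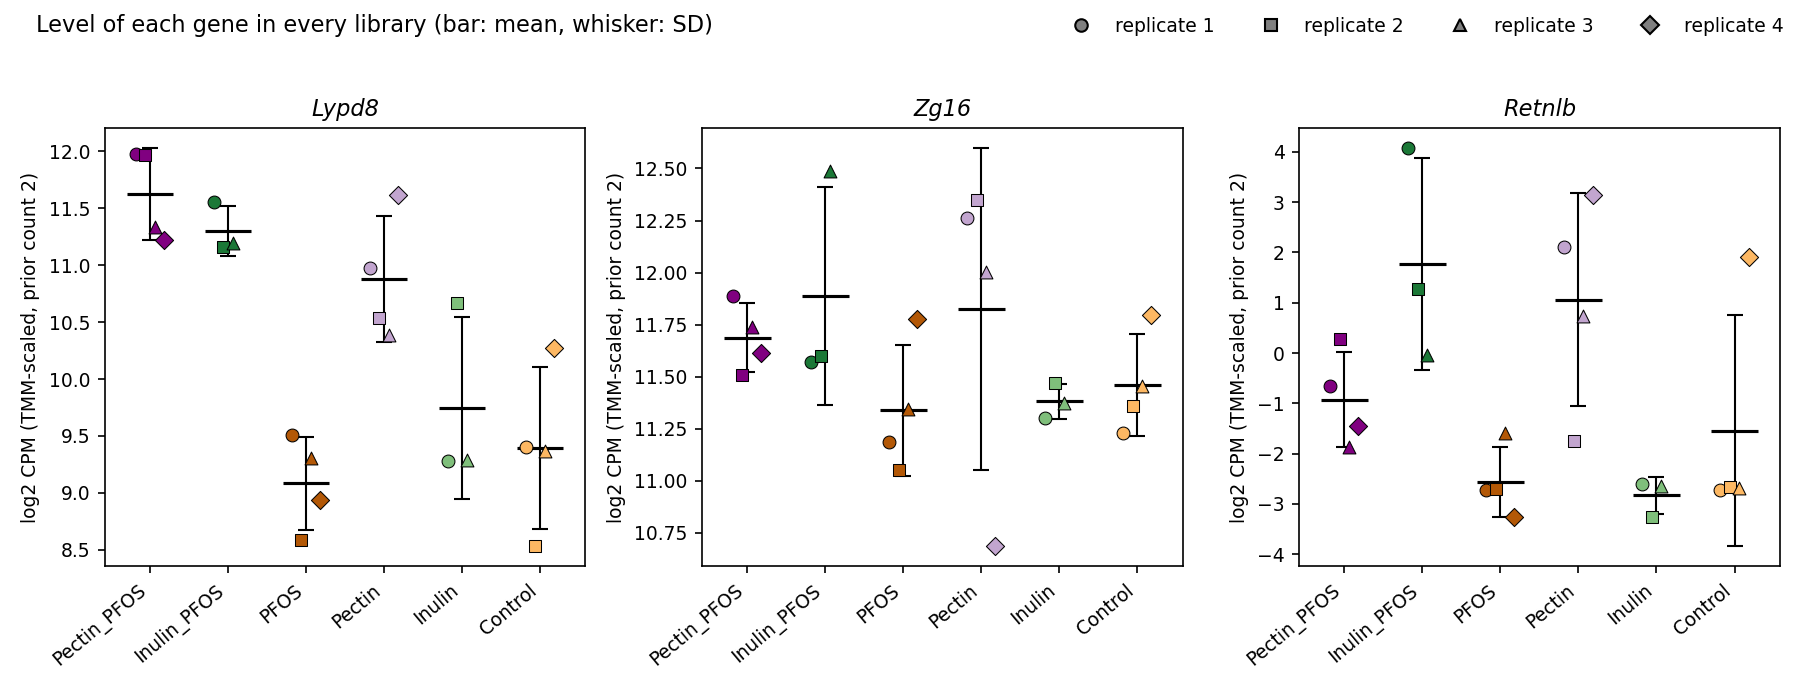
Log2 CPM (TMM-scaled, prior count of 2) of Lypd8, Zg16 and Retnlb in 22 libraries, 1 point per library, with the mean (bar) and SD (whisker) of each diet and PFOS group. Lypd8 is high in Pectin_PFOS and Inulin_PFOS and low in PFOS, Zg16 overlaps between most groups, and Retnlb is near its lowest level in PFOS, in Inulin and in 3 of 4 Control libraries. The y axes differ between panels.

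Lypd8 (ENSMUSG00000013643) lies on the plus strand of chromosome 11, between 58379043 and 58390728 on GRCm38, and its main transcript has 7 exons and 1093 bases. No other annotated gene overlaps it, and the similar gene model Gm12253 had at most 1 count in any library. Of the 3 genes Lypd8 was called in the most comparisons, and 250 bases upstream of a RefSeq start are shown for it. RefSeq gave 2 upstream windows for Lypd8, and the one with the lowest coordinate was taken (RefSeq, GRCm38.p6, chr11:58378782-58379031, plus strand). Capitals mark a TATA-type motif.
Lypd8 upstream: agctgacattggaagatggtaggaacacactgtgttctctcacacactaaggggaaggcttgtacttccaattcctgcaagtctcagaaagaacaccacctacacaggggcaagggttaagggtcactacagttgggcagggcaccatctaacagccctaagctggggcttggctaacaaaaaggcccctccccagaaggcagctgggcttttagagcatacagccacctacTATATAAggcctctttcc
The motif TATATAA begins 18 bases before this RefSeq start and 29 bases before the start in the GENCODE M21 annotation. The other Lypd8 window did not hold the motif. Searched on both strands, the motif was present in 3.04% of 32851 upstream windows of that length. The motifs TTCNNNGAA (the core bound by STAT factors), TTTATNG (a core bound by CDX factors) and GATAAG (bound by GATA factors) were not in the window shown, and 7.02%, 9.81% and 6.55% of all windows held them.

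Lypd8 was higher in both fibre groups with PFOS than in the cellulose group with PFOS. In Pectin_PFOS its 4 libraries had 4037, 4013, 2588 and 2387 CPM, against 729, 384, 631 and 489 CPM in PFOS. The lowest Pectin_PFOS library stood above the highest PFOS library by more than the whole PFOS range. The means were 3256 ± 891 CPM in Pectin_PFOS and 558 ± 152 CPM in PFOS (SD, n = 4 each), a log2 fold change of 2.54 ± 0.39 (SE, adjusted p = 0.00089, edgeR quasi-likelihood test with Benjamini-Hochberg adjustment), or 5.83-fold. Among all genes 16% were called at an adjusted p under 0.05 in Pectin_PFOS vs PFOS and 26.5% had libraries that did not overlap. Lypd8 ranked 34th by p among the 15763 genes. Of the 3 genes it was the only one called in this comparison and the only one whose groups did not overlap. Values of other markers stood as follows in the same libraries. The 6 fibroblast markers summed to 111 to 209 CPM in Pectin_PFOS and 352 to 502 CPM in PFOS, and 4 of 6 fell (median log2 fold change −1.33). The 6 smooth muscle markers summed to 763 to 2229 CPM in Pectin_PFOS and 2050 to 3798 CPM in PFOS, with 6 of 6 fold changes negative (median −0.79), 0 called by edgeR and 1 at an unadjusted p under 0.05. Mitochondrial genes took 2.85% to 3.51% of the counts in Pectin_PFOS and 4.26% to 9.16% in PFOS. Their part in the Lypd8 result was not tested.

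Inulin_PFOS libraries had 3008, 2292 and 2342 Lypd8 CPM, a mean of 2548 ± 400 CPM (SD, n = 3), against 558 ± 152 CPM in PFOS (SD, n = 4). All 3 lay above every PFOS library. The log2 fold change was 2.19 ± 0.40 (adjusted p = 0.00715), or 4.56-fold, and Lypd8 ranked 46th by p. In Inulin_PFOS vs PFOS, edgeR called 2.64% of all genes, and 26.4% did not overlap. Lypd8 and Retnlb were both called here and neither overlapped between the groups. The Lypd8 calls in Inulin_PFOS vs PFOS and Pectin_PFOS vs PFOS held under all 7 other settings and all 22 omissions of a library. The 2 comparisons share the PFOS libraries.

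Without PFOS, Lypd8 was higher with pectin, close to the threshold. Pectin libraries had 2014, 1484, 1341 and 3151 CPM, against 675, 369, 660 and 1238 CPM in Control. The groups did not overlap, though the highest Control library, replicate 4, came close to the lowest Pectin library. The means were 1998 ± 822 CPM in Pectin and 736 ± 363 CPM in Control (SD, n = 4 each). The log2 fold change of 1.44 ± 0.38 had an adjusted p of 0.0495 in edgeR, with 1.99% of all genes called and 8.23% not overlapping in Pectin vs Control. The call was lost under 6 of 7 other settings (adjusted p = 0.0533 to 0.142) and kept by the DESeq2 Wald test (0.00552). It was also lost in 16 of 22 omissions of a library (adjusted p up to 0.117, without Control replicate 2) and kept without Control replicate 4, where the log2 fold change was 1.81. In Inulin, Lypd8 had 620, 1629 and 626 CPM, a mean of 958 ± 581 CPM (SD, n = 3) that rests on replicate 2. The fold change of Inulin vs Control was 0.38 ± 0.40 on the log2 scale (adjusted p = 0.606), and −0.24 without Inulin replicate 2. In that comparison edgeR called 0% of all genes (3257 had an unadjusted p under 0.05), while DESeq2 called 783 and limma 0. The edgeR count was 794 without Control replicate 1, 275 without Pectin_PFOS replicate 1 and 106 without Inulin replicate 3, and at most 2 in the other omissions. Libraries of 9.83% of genes did not overlap there, and no member was among them. Pectin vs Inulin gave 1.06 ± 0.41 (adjusted p = 0.0744), and 1.68 (adjusted p = 0.0240) without Inulin replicate 2.

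PFOS itself did not move Lypd8 past the threshold on any diet. On cellulose the log2 fold change of PFOS vs Control was −0.40 ± 0.37 (adjusted p = 0.854, 95% interval −1.12 to 0.33), where edgeR called 0% of all genes, DESeq2 1 gene and limma 0, and 842 genes had an unadjusted p under 0.05. Of all genes 2.16% did not overlap there, and no member was among them. On inulin, every Inulin_PFOS library (2292 to 3008 CPM) lay above every Inulin library (620 to 1629 CPM), as did 24.4% of genes in one direction or the other. The log2 fold change of 1.41 ± 0.43 missed the threshold in edgeR (adjusted p = 0.125, with 0.159% of genes called) and passed in the DESeq2 Wald test (1.39, adjusted p = 0.0348). On pectin it was 0.70 ± 0.37 (adjusted p = 0.171, 95% interval −0.02 to 1.43), in a comparison where 20.8% of genes were called and 25.6% did not overlap. The PFOS effect on inulin exceeded that on cellulose by 1.81 ± 0.57 on the log2 scale (adjusted p = 0.119 in edgeR, 0.0418 in the DESeq2 Wald test), and that on pectin did so by 1.10 ± 0.52 (adjusted p = 0.399). For these interactions edgeR called 0% of genes, and 3099 and 1953 genes had an unadjusted p under 0.05. DESeq2 called 659 and 119, and limma called 0 in each. For the inulin interaction edgeR called 755 genes without Control replicate 1 and 14 without Inulin replicate 3, and for the pectin interaction at most 4 over the omissions.

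By mean CPM the order of Lypd8 was Pectin_PFOS, Inulin_PFOS, Pectin, Inulin, Control and PFOS. Each neighbouring pair in that order overlapped. Pectin_PFOS vs Inulin_PFOS gave 0.35 ± 0.40 (adjusted p = 0.699, 95% interval −0.43 to 1.14), with 0% of all genes called by edgeR, 2572 at an unadjusted p under 0.05, 552 called by DESeq2 and 2 by limma. The edgeR count reached 177 without Control replicate 1 and at most 24 in the other omissions. In this comparison 19.7% of genes did not overlap, and none of the 3 members was among them. By the ratio of the highest to the lowest library, within-group spread of Lypd8 was widest in Control (3.35 times) and narrowest in Inulin_PFOS (1.31 times). By the SD of log2 CPM it was widest in Inulin (0.800, against 0.712 in Control) and narrowest in Inulin_PFOS (0.218).

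**Figure D2:**
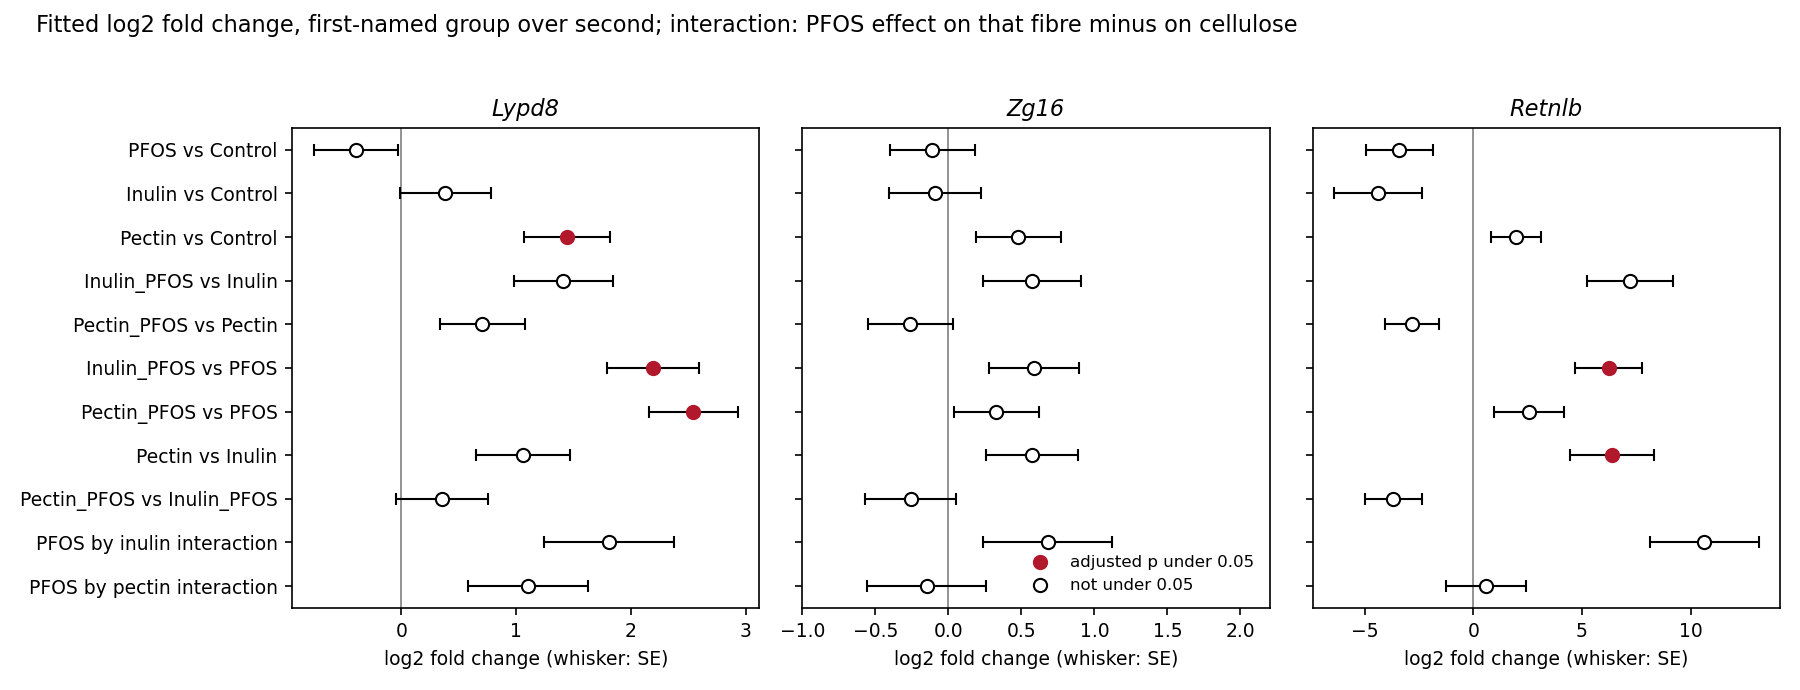
Log2 fold change (x axis, whisker: SE) of Lypd8, Zg16 and Retnlb in 9 pairs of groups and 2 interactions; filled points have an edgeR adjusted p under 0.05. Lypd8 is called in 3 comparisons, Retnlb in 2 and Zg16 in none; the x axes differ between panels.

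Absorptive enterocyte markers were higher where Lypd8 was higher in some groups and not in others. Their summed level (Vil1, Alpi, Krt20, Cdhr5, Slc9a3 and Anpep, most of it from Anpep) was 25722 to 52895 CPM in Pectin_PFOS and 21661 to 25436 CPM in Inulin_PFOS, against 12697 to 19784 CPM in PFOS. Of the 6 markers, 4 rose in Pectin_PFOS vs PFOS, where 16% of all genes were called. In Inulin_PFOS vs PFOS 1 rose, Slc9a3, where 2.64% of all genes were called. None of the 6 was at 0 counts in any library. In Pectin the sum was 9516 to 16917 CPM against 10434 to 17590 CPM in Control. In Pectin vs Control 1 of 6 markers (Slc9a3) rose, where 1.99% of all genes were called. In Inulin_PFOS vs Inulin, where Lypd8 did not overlap, the sum did, at 21661 to 25436 CPM in Inulin_PFOS and 16958 to 29338 CPM in Inulin. Set against this sum, Lypd8 amounted to 7.63% to 13.0% in Pectin_PFOS and 9.01% to 13.2% in Inulin_PFOS, against 2.61% to 4.97% in PFOS, with no overlap. It amounted to 7.93% to 31.3% in Pectin, 2.37% to 5.55% in Inulin and 2.10% to 11.9% in Control, where replicate 4 was the highest and overlapped Pectin.

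Zg16 (ENSMUSG00000049350) lies on the minus strand of chromosome 7, between 127050156 and 127051977 in the deposited tables, with 3 exons and 636 bases in its main transcript. GENCODE M21 extends the gene to 127087328 on GRCm38. No other annotated gene overlaps the deposited span, and overlap over the longer span was not examined. Zg16 was high in every library, and no comparison between groups passed the test. Pectin_PFOS libraries had 3796, 2912, 3421 and 3135 CPM and Inulin_PFOS libraries 3038, 3108 and 5750 CPM, against 2331, 2121, 2603 and 3507 CPM in PFOS. The single high library, Inulin_PFOS replicate 3, set the mean of its group, and PFOS replicate 4 reached into the range of both fibre groups. Without PFOS, Pectin libraries had 4906, 5222, 4107 and 1647 CPM and Inulin libraries 2527, 2834 and 2655 CPM, against 2403, 2624, 2812 and 3562 CPM in Control. Pectin replicate 4 held both the lowest Zg16 level of all libraries and the highest Lypd8 level outside Pectin_PFOS.

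Group means of Zg16 were 3316 ± 382 CPM in Pectin_PFOS, 3965 ± 1546 CPM in Inulin_PFOS, 2640 ± 610 CPM in PFOS, 3971 ± 1618 CPM in Pectin, 2672 ± 154 CPM in Inulin and 2850 ± 503 CPM in Control (SD, n = 4, 3, 4, 4, 3 and 4). No neighbouring pair in the order of means was free of overlap. Zg16 was called in 0 of 11 comparisons by edgeR (smallest unadjusted p 0.0733), by DESeq2 and by limma. Its log2 fold changes ran from −0.26 ± 0.29 (Pectin_PFOS vs Pectin) to 0.59 ± 0.31 (Inulin_PFOS vs PFOS, adjusted p = 0.296) among pairs of groups. For PFOS vs Control the 95% interval was −0.68 to 0.46, and for Pectin_PFOS vs PFOS it was −0.24 to 0.90. The sign of both is positive or negative depending on the scaling, since library totals or TPM turned them to 0.01 and 0.12 for PFOS vs Control and −0.06 and −0.01 for Pectin_PFOS vs PFOS. Among the 9 pairs of groups compared, Inulin_PFOS vs Inulin was the one in which Zg16 did not overlap, with 0.57 ± 0.34 (adjusted p = 0.362). Libraries of 24.4% of all genes did not overlap in that comparison. Without Pectin replicate 4, Pectin vs Inulin gave 0.82 (adjusted p = 0.0368), against 0.57 ± 0.32 with it (adjusted p = 0.202).

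Other goblet cell genes rose where Zg16 did not pass. The 8 goblet cell markers (Muc2, Fcgbp, Clca1, Tff3, Agr2, Spdef, Spink4 and Atoh1) summed to 10940 to 13339 CPM in Pectin_PFOS and 8105 to 13818 CPM in Inulin_PFOS, against 4252 to 6688 CPM in PFOS, and none was at 0 in any library. Of these 8 markers 5 rose in Pectin_PFOS vs PFOS, where 16% of all genes were called, and 3 in Inulin_PFOS vs PFOS, where 2.64% were. As a share of that sum, Zg16 was 26.1% to 30.5% in Pectin_PFOS, 33.6% to 41.6% in Inulin_PFOS and 39.2% to 52.4% in PFOS. It was 27.9% to 52.2% in Pectin, 41.0% to 53.6% in Inulin and 36.9% to 56.9% in Control. Pectin_PFOS libraries lay below all PFOS, Inulin and Control libraries on this measure, and Pectin replicate 4 was the only Pectin library within their range.

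**Figure D3:**
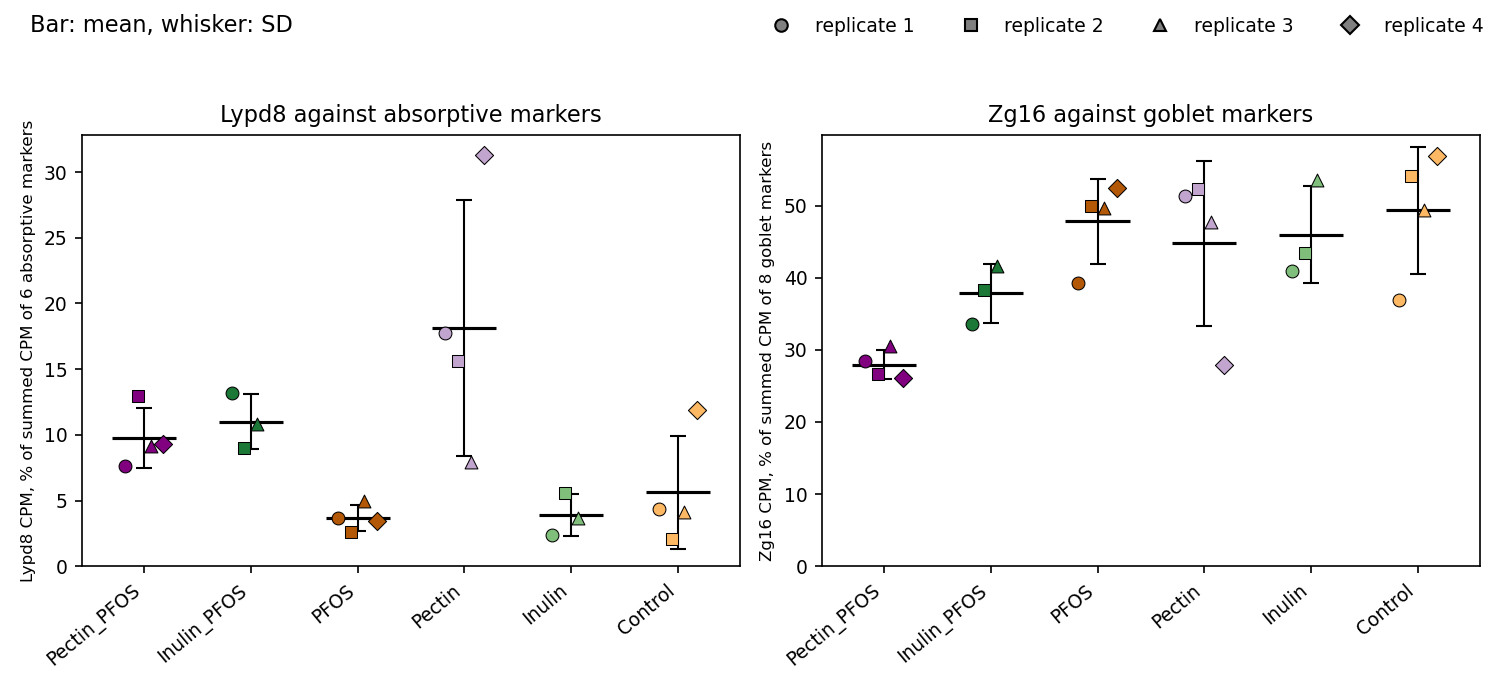
Lypd8 as a percentage of the summed CPM of 6 absorptive markers (left) and Zg16 as a percentage of the summed CPM of 8 goblet markers (right), 1 point per library with group mean and SD. The Lypd8 share is 7.63% to 13.0% in Pectin_PFOS against 2.61% to 4.97% in PFOS, and the Zg16 share is 26.1% to 30.5% in Pectin_PFOS against 39.2% to 52.4% in PFOS.

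Muc2, the gel-forming mucin of the intestine, averaged 1906 ± 336 CPM in Pectin_PFOS and 764 ± 173 CPM in PFOS (SD, n = 4 each; 1.32 ± 0.34 on the log2 scale, adjusted p = 0.0149). Fcgbp, a mucus protein that binds mucins, was at 5893 ± 445 CPM in Pectin_PFOS and 2306 ± 632 CPM in PFOS (1.35 ± 0.23, adjusted p = 0.0015). Tff3, the small trefoil peptide of goblet cells, had values close to equal, with 1404 ± 109 CPM in Pectin_PFOS and 1291 ± 344 CPM in PFOS (0.12 ± 0.29, adjusted p = 0.805).

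Retnlb (ENSMUSG00000022650) lies on the plus strand of chromosome 16, between 48816856 and 48818891 on GRCm38, with 4 exons, 696 transcript bases and no overlapping gene. It was scarce, and libraries of the same group differed widely. Pectin_PFOS libraries held 8, 19, 3 and 5 counts, Inulin_PFOS libraries 296, 42 and 16, and PFOS libraries 1, 1, 5 and 0. Pectin libraries held 76, 4, 28 and 196 counts, Inulin libraries 1, 0 and 1, and Control libraries 1, 1, 1 and 66. All Inulin_PFOS libraries exceeded all PFOS and all Inulin libraries, all Pectin libraries exceeded all Inulin libraries, and Control replicate 4 alone overlapped Pectin. Among all genes, 26.4% did not overlap in Inulin_PFOS vs PFOS, 24.4% in Inulin_PFOS vs Inulin and 27% in Pectin vs Inulin. A count of 0 allows up to 3 counts, which is 0.144 CPM in PFOS replicate 4 and 0.167 CPM in Inulin replicate 2. Intervals and limits from counts cover counting error only.

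Retnlb averaged 6.65 ± 8.79 CPM in Inulin_PFOS (SD, n = 3) and 0.0806 ± 0.101 CPM in PFOS (SD, n = 4). Summed over libraries, 354 counts in Inulin_PFOS stood against 7 in PFOS, a ratio per scaled library of 79.5 (95% counting interval 38.2 to 199). edgeR gave a log2 fold change of 6.23 ± 1.55 (adjusted p = 0.0363). The call was lost without Inulin_PFOS replicate 1 (4.18, adjusted p = 0.216) and without PFOS replicate 1, 2, 3 or 4 (5.86 to 7.46, adjusted p = 0.064 to 0.125). It was also lost with no filter on low counts (adjusted p = 0.0814), a filter that Retnlb passed only through its high libraries. In Pectin vs Inulin, 304 counts stood against 2, a ratio of 100 (95% counting interval 27.6 to 833), with 3.66 ± 3.74 CPM in Pectin (SD, n = 4) and 0.0387 ± 0.0336 CPM in Inulin (SD, n = 3). This was also called by edgeR (adjusted p = 0.0312), in a comparison where 17.5% of all genes were called and 27% did not overlap. The call was lost without Inulin replicate 1, 2 or 3 or Pectin replicate 1 or 4 (adjusted p up to 0.143). It was also lost with no filter (adjusted p = 0.0703), with the replicate block (adjusted p = 0.0593) and on log2(TPM + 1) (adjusted p = 0.0686). Fitted fold changes of a gene this scarce depend on the prior count.

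In Inulin_PFOS vs Inulin the counts were 354 against 2, a ratio of 171 (95% counting interval 47.1 to 1421). edgeR did not call it (adjusted p = 0.101), while the DESeq2 Wald test did (adjusted p = 0.00756), and so did edgeR without Control replicate 4 (adjusted p = 0.0492). On pectin the pooled ratio lay below 1, with 35 counts in Pectin_PFOS and 304 in Pectin, a ratio of 0.132 (95% counting interval 0.0905 to 0.188). Pectin replicate 4 held 196 of the 304 counts, and the groups overlapped, in a comparison where 25.6% of all genes did not. The edgeR log2 fold change of −2.82 ± 1.23 for Retnlb in Pectin_PFOS vs Pectin missed the threshold (adjusted p = 0.104). It passed without Control replicate 4 (adjusted p = 0.0375). The PFOS effect on pectin was not tested against that on inulin. Pectin_PFOS vs PFOS gave 2.56 ± 1.62 (adjusted p = 0.286) and Pectin_PFOS vs Inulin_PFOS −3.68 ± 1.29 (adjusted p = 0.164).

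By mean CPM the order of Retnlb was Inulin_PFOS, Pectin, Control, Pectin_PFOS, PFOS and Inulin, and each neighbouring pair overlapped. Comparisons with Control turned on Control replicate 4, which held 66 of the 69 Control counts. PFOS vs Control was −3.41 ± 1.54 on the log2 scale (adjusted p = 0.822) with that library and 0.65 (adjusted p = 0.975) without it. Pectin vs Control was 1.97 ± 1.16 (adjusted p = 0.383) with it and 6.03 (adjusted p = 0.0325) without it. The interaction of PFOS with inulin, 10.6 ± 2.5, was not called by edgeR (adjusted p = 0.0984) and was called by DESeq2 (adjusted p = 0.00292) and by edgeR without Control replicate 1 (adjusted p = 0.0268). That with pectin was 0.59 ± 1.84 (adjusted p = 0.924) and −3.47 (adjusted p = 0.370) without Control replicate 4.

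Control replicate 4 also stood apart in other cell markers. Mitochondrial genes took 14.9% of its counts, the highest share of the 22 libraries, against 3.74% to 6.76% in the other Control libraries. Its 4 adipocyte markers summed to 1296 CPM, against 59.0 to 311 CPM, and its 6 fibroblast markers to 1130 CPM, against 309 to 867 CPM in the other Control libraries. Retn, the resistin gene of adipocytes, was at 60.6 CPM in this library and at 0.0465 to 9.19 CPM in the other Control libraries. Its 5 Paneth cell markers (Lyz1, Defa24, Mmp7, Itln1 and Ang4) summed to 7265 CPM, against 1629 to 3267 CPM in the other Control libraries, and its 6 lymphocyte markers to 836 CPM, against 171 to 336 CPM. Its 4 ileum markers summed to 2187 CPM, the lowest of the 22 libraries, against 3123 to 3450 CPM in the other Control libraries. Its 7 proximal small intestine markers summed to 8055 CPM, against 2384 to 4589 CPM, though Lct was at 0.664 CPM and Gata4 at 0.830 CPM. Paneth markers were at 4889 to 9995 CPM in Pectin and 918 to 1770 CPM in Inulin. In Pectin vs Inulin 5 of 5 rose, where 17.5% of all genes were called. Paneth markers were at 1772 to 3748 CPM in Inulin_PFOS and 1081 to 2679 CPM in PFOS. In Inulin_PFOS vs PFOS edgeR called 0 of 5 (1 at an unadjusted p under 0.05) and 2.64% of all genes. Lymphocyte markers were at 747 to 1599 CPM in Pectin, 500 to 847 CPM in Inulin_PFOS, 58.8 to 649 CPM in Inulin and 73.8 to 356 CPM in PFOS, with edgeR calling 0 of 6 in Pectin vs Inulin and in Inulin_PFOS vs PFOS (1 each at an unadjusted p under 0.05). Their part in the Retnlb result was not tested.

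Lypd8 and Retnlb were correlated across the 22 libraries. Retnlb had under 10 counts in 14 of these libraries and at most 1 in 9, and it passed the filter only through its high libraries. The relations of Zg16 with Lypd8 and with Retnlb missed the threshold over all libraries, and both passed it over levels without Pectin replicate 4. As deviations from the group means of log2 CPM, Lypd8 and Retnlb had a Pearson r of 0.59 (permutation p = 0.0110, adjusted p = 0.0330 over 3 pairs) and a Spearman rho of 0.47 (permutation p = 0.0356, adjusted p = 0.107). Without the 2 libraries farthest from the median of Lypd8, Control replicate 4 and Inulin replicate 2, r was 0.57. Over undivided libraries, where the group differences enter too and permutations crossed groups, r was 0.66 (permutation p = 0.00084, adjusted p = 0.00252) and rho 0.64 (permutation p = 0.00176, adjusted p = 0.00528). Without PFOS replicate 2 and Control replicate 2, this r was 0.63. The relation of the deviations missed the threshold without Control replicate 4 (r = 0.43, adjusted permutation p = 0.132), and without Inulin_PFOS replicate 1, Pectin replicate 1, Pectin replicate 4, Pectin_PFOS replicate 2 or Pectin_PFOS replicate 3 (r = 0.52 to 0.59, adjusted permutation p = 0.0502 to 0.0824). Over levels, Lypd8 and Zg16 had r = 0.33 (permutation p = 0.131, adjusted p = 0.196) and rho = 0.38 (permutation p = 0.0801, adjusted p = 0.0840), with r = 0.22 without PFOS replicate 2 and Control replicate 2. Without Pectin replicate 4, r over levels was 0.53 (adjusted permutation p = 0.0196). Over levels, Zg16 and Retnlb had r = 0.17 (permutation p = 0.451) and rho = 0.38 (permutation p = 0.0840), with r = 0.45 without Pectin replicate 4 and Inulin_PFOS replicate 3. Without Pectin replicate 4 alone, r over levels was 0.44 (adjusted permutation p = 0.0439). Lypd8 and Zg16 had r = −0.17 (permutation p = 0.516) and rho = −0.01 (permutation p = 0.984) for deviations, with r = −0.36 without Control replicate 4 and Inulin replicate 2 and r = 0.22 without Pectin replicate 4. Zg16 and Retnlb had r = −0.36 (permutation p = 0.261, adjusted p = 0.391) and rho = −0.29 (permutation p = 0.289, adjusted p = 0.434), with r = −0.09 without Inulin_PFOS replicate 3 and Pectin replicate 4.

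**Figure D4:**
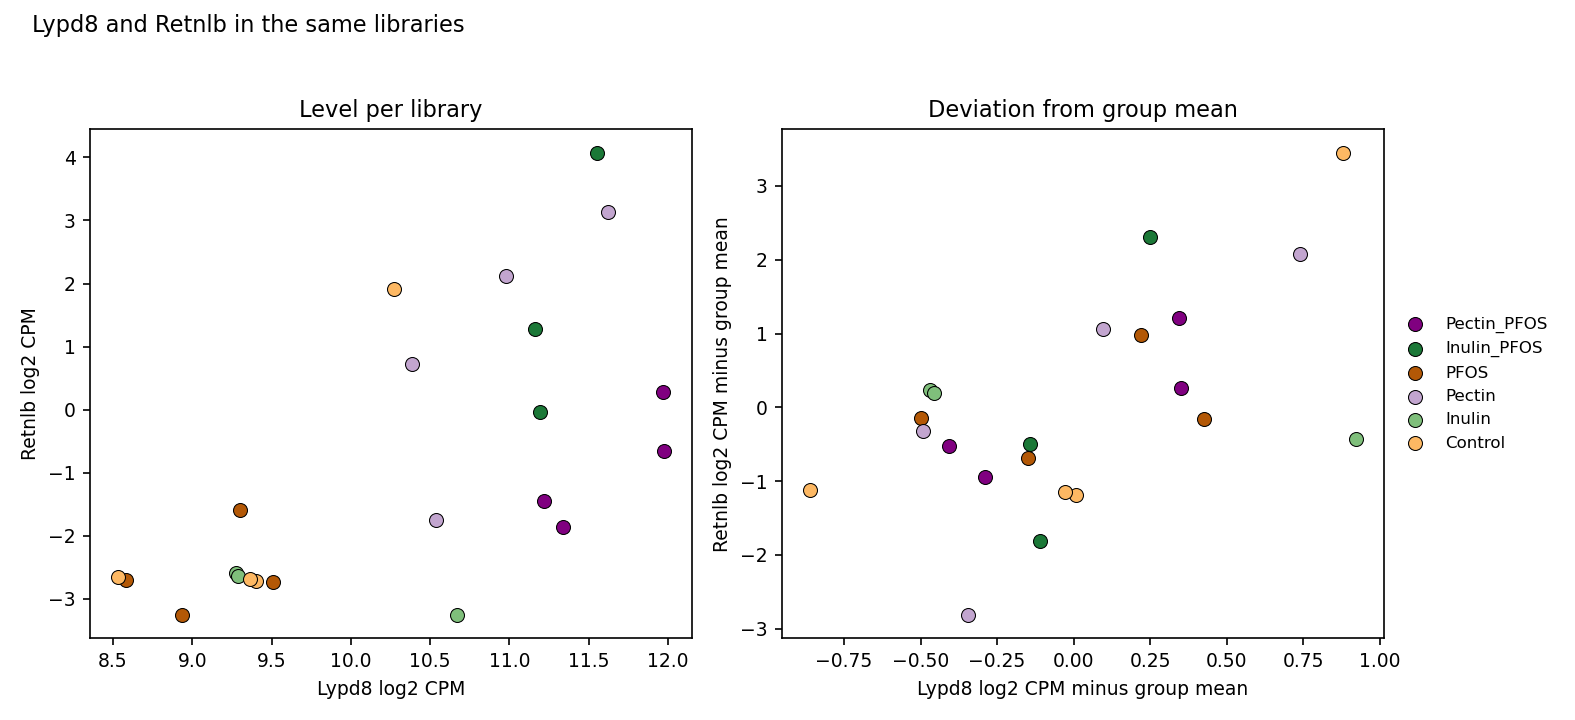
Log2 CPM of Retnlb (y axis) against Lypd8 (x axis), 1 point per library coloured by group, as levels (left) and as deviations from the group mean (right). Retnlb is highest in Inulin_PFOS replicate 1, Pectin replicate 4 and Pectin replicate 1, with Lypd8 at 3008, 3151 and 2014 CPM, while Pectin_PFOS replicates 1 and 2 have the highest Lypd8 (4037 and 4013 CPM) with 8 and 19 Retnlb counts; r is 0.66 for levels and 0.59 for deviations over 22 libraries.

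Among 12589 genes with a mean of at least 1 CPM, those whose log2 CPM correlated best with Lypd8 over the 22 libraries were Dmbt1 (r = 0.96), Car4 (0.95), Nipal2 (0.95), Ctsc (0.94) and Pla2g10 (0.93). Dmbt1 encodes a secreted scavenger receptor protein that binds bacteria, and Car4 a carbonic anhydrase of the brush border. Nipal2 encodes a membrane protein of the NIPA-like family, Ctsc a lysosomal protease, and Pla2g10 a secreted phospholipase. Their r over deviations from group means was 0.75 to 0.88. Dmbt1 averaged 1186 ± 574 CPM in Pectin_PFOS and 1042 ± 276 CPM in Inulin_PFOS, against 62.7 ± 38.4 CPM in PFOS (SD, n = 4, 3 and 4). Its log2 fold changes against PFOS were 4.24 ± 0.68 (adjusted p = 0.0014) and 4.05 ± 0.70 (adjusted p = 0.00534), larger in value than those of Lypd8. Car4 rose in the same comparisons, by 2.82 ± 0.50 (adjusted p = 0.0021) and 2.85 ± 0.52 (adjusted p = 0.00715). Among all genes, 16% and 2.64% were called in these comparisons. Dmbt1 and Car4 were picked by correlation with Lypd8 over the same libraries, so their rise is not separate support. Car4 was also on a list of 10 colonocyte and colon position markers. Of these 4 were tested, and Car4 was the 1 called in each comparison. The part of gut position here was not tested.

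For Zg16 the closest genes were Tff3 (r = 0.93), Glod5 (0.89), Spink1 (0.88), Dynlt1a (0.86) and Ift20 (0.85). Spink1 encodes a secreted trypsin inhibitor, Dynlt1a a dynein light chain and Ift20 a protein of intraflagellar transport. Like Zg16, Tff3 had its lowest level in Pectin replicate 4 (915 CPM) and its highest in Inulin_PFOS replicate 3 (3294 CPM). The closest genes to Retnlb were Mal2 (0.86), Slc40a1 (0.86), Eif2s2 (0.86), Tspan1 (0.82) and Oxct1 (0.82). Slc40a1 encodes ferroportin, the iron exporter, Mal2 a protein of apical membrane traffic, Eif2s2 a subunit of a translation initiation factor, and Oxct1 the enzyme that activates ketone bodies for use. Retnlb had under 10 counts in 14 of the 22 libraries behind these values.

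Of other epithelial defence genes, a list of 24 antimicrobial and immunoglobulin A genes, 20 were tested. In Pectin_PFOS vs PFOS 12 rose and 0 fell, where 16% of all genes were called (median log2 fold change 1.80, against −0.03 over all genes). Pigr, which carries immunoglobulin A across the epithelium, averaged 2908 ± 371 CPM in Pectin_PFOS and 284 ± 102 CPM in PFOS (SD, n = 4 each; 3.35 ± 0.46, adjusted p = 0.000631). Nos2, the inducible nitric oxide synthase, was at 4.13 ± 0.58 and Duox2, an epithelial oxidase that makes hydrogen peroxide, at 3.35 ± 0.48 (adjusted p = 0.00064 each).

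In Inulin_PFOS vs PFOS also 12 rose and 0 fell, where 2.64% of all genes were called (median 2.42, against −0.01 over all genes). Reg3a, a C-type lectin of the Reg family, averaged 135 ± 18.2 CPM in Inulin_PFOS and 27.4 ± 13.8 CPM in PFOS (SD, n = 3 and 4; 2.30 ± 0.38, adjusted p = 0.0043). Pigr was at 2.77 ± 0.47 and Saa3, a serum amyloid A protein, at 6.07 ± 1.01 (adjusted p = 0.00482 each), and Duox2 at 3.26 ± 0.49 (adjusted p = 0.00257). Pectin vs Control raised 5 and lowered 0, where 1.99% of all genes were called (median 1.60, against −0.08), with Igha, the constant region of immunoglobulin A, at 3.51 ± 0.58 (adjusted p = 0.00904). Duoxa2, the maturation factor of Duox2, was at 3.63 ± 0.70 (adjusted p = 0.0191) and Dmbt1 at 2.80 ± 0.64 (adjusted p = 0.0333).

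Against Inulin, Pectin raised 6 of the 20 and lowered 0, where 17.5% of all genes were called (median 1.28, against 0.04 over all genes), among them the Paneth cell genes Lyz1 (lysozyme, 2.26 ± 0.42, adjusted p = 0.0028) and Itln1 (intelectin, 2.57 ± 0.51, adjusted p = 0.00361). In Pectin_PFOS vs Pectin 1 was higher and 3 lower, a share of the 20 close to the 20.8% of all genes called there (median 0.02, against −0.06). Nos2 rose by 2.24 ± 0.54 (adjusted p = 0.0102), and Itln1 (−1.85 ± 0.44, adjusted p = 0.00982), Lyz1 (−1.39 ± 0.37, adjusted p = 0.0149) and Jchain, which joins immunoglobulin A into dimers (−2.40 ± 0.72, adjusted p = 0.0268), fell. In PFOS vs Control, Inulin vs Control, Inulin_PFOS vs Inulin and Pectin_PFOS vs Inulin_PFOS, edgeR called 0 of the 20, with 5, 7, 10 and 1 of them at an unadjusted p under 0.05. All 20 had a positive fold change in Inulin_PFOS vs Inulin (median 1.41, against −0.01 over all genes), and 17 of 20 a negative one in PFOS vs Control (median −0.64, against −0.04).

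Goblet cell and mucus genes, a list of 16 without the 3 members, gave smaller medians than the antimicrobial list in most of these comparisons. The exceptions were Pectin_PFOS vs Pectin, PFOS vs Control (−0.04 against −0.64) and Pectin_PFOS vs Inulin_PFOS (0.09 against −0.35). In Pectin_PFOS vs PFOS 9 rose and 1 fell, against 16% of all genes called (median 0.73, against −0.03 over all genes), the lower one being St6galnac6, a sialyltransferase (−0.96 ± 0.24, adjusted p = 0.0122). Clca1, a secreted mucus-processing protease, was at 1.26 ± 0.27 (adjusted p = 0.0059). In Inulin_PFOS vs PFOS 3 rose and 0 fell, against 2.64% of all genes called (median 0.65, against −0.01 over all genes), namely Spink4, a peptide of goblet cell granules (1.73 ± 0.36, adjusted p = 0.0145), Clca1 (1.10 ± 0.29, adjusted p = 0.0438) and Fcgbp (0.92 ± 0.24, adjusted p = 0.0427). Pectin vs Control raised 3 and lowered 0, against 1.99% of all genes called (median 0.59, against −0.08 over all genes): Foxa3 (0.91 ± 0.18, adjusted p = 0.0191) and Spdef (0.84 ± 0.22, adjusted p = 0.0488), transcription factors of goblet cell differentiation, and Agr2, which folds mucins (1.04 ± 0.27, adjusted p = 0.0488). The same 3 genes and Spink4 rose in Pectin vs Inulin, against 17.5% of all genes called (0 fell, median 0.53, against 0.04 over all genes). In Pectin_PFOS vs Pectin, Muc2 (1.16 ± 0.34, adjusted p = 0.0230) and Fcgbp (0.72 ± 0.22, adjusted p = 0.0291) rose and St6galnac6 fell (−0.74 ± 0.24, adjusted p = 0.0360). These 3 of 16 are close to the 20.8% of all genes called there (median 0.03, against −0.06 over all genes).

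Of the cytokines, receptors and sensors known to act upstream of these genes, 15 of 19 were tested. Il13 had 0 counts in all libraries, Il4 at most 5, Il22 at most 11 and Il25 at most 12, too few for a test. In Pectin_PFOS vs Pectin 6 rose and 0 fell, against 20.8% of all genes called (median 0.50, against −0.06 over all genes), among them Stat6, which relays interleukin-4 and interleukin-13 (0.60 ± 0.16, adjusted p = 0.0137), Stat3, which relays interleukin-22 (0.61 ± 0.19, adjusted p = 0.0275), Myd88, the adaptor of Toll-like receptors (0.50 ± 0.16, adjusted p = 0.0342), and Il10rb, a subunit of the interleukin-22 receptor (0.59 ± 0.20, adjusted p = 0.0434). In Pectin_PFOS vs PFOS 4 rose and 0 fell, against 16% of all genes called (median 0.47, against −0.03 over all genes): Myd88 (0.67 ± 0.16, adjusted p = 0.0107), Stat3 (0.72 ± 0.19, adjusted p = 0.0141), the cytokine gene Il18 (1.40 ± 0.40, adjusted p = 0.0227) and Il4ra, the interleukin-4 receptor (0.59 ± 0.20, adjusted p = 0.0479). Pectin vs Inulin raised Il18 (1.55 ± 0.44, adjusted p = 0.0229) and lowered Il10rb (−0.73 ± 0.22, adjusted p = 0.0276), Il22ra1 (−1.49 ± 0.49, adjusted p = 0.0421) and Stat6 (−0.49 ± 0.17, adjusted p = 0.0479), 4 of 15 against 17.5% of all genes called (median −0.37, against 0.04 over all genes).

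Within the resistin family, Retnla and Retnlg neighbour Retnlb on chromosome 16. Retnla, which macrophages and fat tissue also express, averaged 0.661 ± 0.535 CPM in Pectin_PFOS and 7.45 ± 5.32 CPM in Pectin (SD, n = 4 each; −3.49 ± 1.08, adjusted p = 0.0302). In the same comparison all 4 adipocyte markers had negative fold changes (median −2.32, 0 called by edgeR and 2 at an unadjusted p under 0.05), with sums of 55.6 to 143 CPM in Pectin_PFOS and 35.8 to 633 CPM in Pectin. Of the 6 fibroblast markers 4 fell (median −1.34), with 111 to 209 CPM in Pectin_PFOS and 397 to 536 CPM in Pectin. Among all genes 20.8% were called in Pectin_PFOS vs Pectin. Their part in the Retnla result was not tested. Retn was called in none of the 11 comparisons (smallest unadjusted p 0.154). Retnlg had at most 8 counts and was not tested. Of 6 tested Ly6/uPAR family genes beside Lypd8, 1 was called in any comparison: Ly6a, with 27.3 ± 6.25 CPM in Pectin (SD, n = 4) and 9.78 ± 6.07 CPM in Inulin (SD, n = 3; 1.48 ± 0.43, adjusted p = 0.0264). In Pectin vs Inulin 17.5% of all genes were called, so 1 of 6 is close to the share of all genes.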

How the data were processed

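Total RNA was extracted on silica columns and stranded libraries were sequenced on a DNBSEQ instrument, per the labels' protocols. HISAT, Bowtie2 and the build GRCm39 are listed in the submitters' processing notes, with no roles or versions. Of 46005 genes shared with GENCODE M21, 38860 have the same start and end as on GRCm38, so printed coordinates are on GRCm38. The deposited expected counts per gene (fractional for 3.84% to 4.85% of the genes in a library) and the deposited TPM values were made by the authors, and the counting program is not given in the sources used here. How reads were divided between similar genes is not stated.

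Expected counts were rounded and tested in edgeR 4.0.16 (R 4.3.3) by its robust quasi-likelihood F test, after TMM scaling and the default expression filter, with a single model of 6 group means over the 22 libraries. Two-sided p-values received Benjamini-Hochberg adjustment over 15763 genes in each of 11 comparisons, 9 pairs of groups and 2 interactions, and a gene was called at an adjusted p under 0.05. An interaction is the PFOS effect on a fibre minus that on cellulose. SE is the size of a log2 fold change over the root of its F statistic, and 95% intervals are normal. Log2 CPM used a prior count of 2. Correlations were tested with 100000 permutations, within groups for deviations from group means, and adjusted over 3 pairs. The edgeR script was checked on simulated counts. Alternatives were library totals in place of TMM, no filter, a replicate block, the groups of a comparison alone, the DESeq2 1.42.0 Wald test, limma 3.58.1 on log2(TPM + 1) and log2(TPM + 0.1), and leaving out each library.

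The 3 genes and the 16 gene lists were chosen with earlier results of these data known. The text names the 3 genes, up to 4 called members of a list by p in each comparison, and for each of the 3 the 5 genes with the highest correlation. Other genes named from lists were chosen after their values were seen. Upstream sequence is from RefSeq (GRCm38.p6), which matched Lypd8.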

Additional observations from a re-analysis of the deposited data

Results flagged for a closer look

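Retnlb in Control replicate 4 had 3.65 CPM, against 0.0465 to 0.0531 CPM in the other 3 Control libraries. The gap to the nearest of these was 0.998 of the range of the group, above the 95% critical value of 0.829 of Dixon's test for 4 samples. It was the only such sample among the 12 sets of 4 libraries examined (3 genes in 4 groups), and chance flags about 1 in 20 sets.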

How the results depend on the processing

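Of 33 fold changes (3 genes, 11 comparisons), 7 other settings gave 231 values, of which 208 kept direction and side of the threshold, 10 lost a call, 5 gained one and 8 turned sign. Leaving out a library gave 726 values, of which 685 were kept, 26 lost a call, 6 gained one and 9 turned sign. The cause was not tested. Lypd8 in Pectin vs Control missed the threshold with library totals (1.45), no filter (1.45), the replicate block (1.44), its groups alone (1.48), log2(TPM + 1) (1.23) and log2(TPM + 0.1) (1.24), and was 1.18 to 1.81 over omissions. Retnlb in Inulin_PFOS vs PFOS missed it with no filter (6.25; omissions 4.18 to 7.46), and Retnlb in Pectin vs Inulin with no filter (6.35), the replicate block (5.32) and log2(TPM + 1) (2.43; omissions 5.46 to 6.76). The DESeq2 Wald test called Lypd8 in Inulin_PFOS vs Inulin (1.39), Pectin vs Inulin (1.03) and the inulin interaction (1.78), and Retnlb in Inulin_PFOS vs Inulin (7.43) and that interaction (10.95); its adjusted p for Retnlb in the pectin interaction was not given. Signs turned for Zg16 in PFOS vs Control with library totals (0.0134), log2(TPM + 1) (0.12) and log2(TPM + 0.1) (0.12), for Zg16 in Pectin_PFOS vs PFOS (−0.0589, −0.011 and −0.011 in the same order) and for Retnlb in the pectin interaction with log2(TPM + 1) (−0.91) and log2(TPM + 0.1) (−0.89).

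Where at least 1 omission gained a call or turned a sign, values over the 22 omissions ran, for Lypd8, from −0.24 to 0.75 in Inulin vs Control and 0.74 to 1.68 in Pectin vs Inulin. For Zg16 they ran from −0.24 to 0.015 in PFOS vs Control, −0.14 to 0.0322 in Inulin vs Control, 0.41 to 0.82 in Pectin vs Inulin, −0.42 to 0.11 in Pectin_PFOS vs Inulin_PFOS and −0.44 to 0.0105 in the pectin interaction. For Retnlb they ran from −4.57 to 0.65 in PFOS vs Control, 1.14 to 6.03 in Pectin vs Control, 5.16 to 7.74 in Inulin_PFOS vs Inulin, −3.53 to −1.91 in Pectin_PFOS vs Pectin, 6.57 to 11.8 in the inulin interaction and −3.47 to 1.78 in the pectin interaction. Correlations over levels on log2(TPM + 1) turned to −0.0385 (Lypd8 and Zg16; omissions 0.26 to 0.53) and −0.38 (Zg16 and Retnlb; omissions 0.0724 to 0.44). For deviations, Lypd8 and Retnlb missed the threshold with library totals (0.53; omissions 0.43 to 0.73), Zg16 and Retnlb passed it on log2(TPM + 1) (−0.75), and Lypd8 and Zg16 ran from −0.32 to 0.22 over omissions.

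Scaling by library totals moved the median log2 fold change over the genes tested to −0.41 in Pectin_PFOS vs PFOS, −0.33 in Inulin_PFOS vs PFOS, −0.27 in Pectin_PFOS vs Pectin, −0.20 in Inulin vs Control, −0.15 in Pectin vs Control, 0.16 in Pectin vs Inulin and −0.30 in the pectin interaction. Counts of called genes, 313 in Pectin vs Control, 25 in Inulin_PFOS vs Inulin, 3277 in Pectin_PFOS vs Pectin, 416 in Inulin_PFOS vs PFOS, 2526 in Pectin_PFOS vs PFOS and 2753 in Pectin vs Inulin, ran over the other settings from 47 to 856, 0 to 506, 1335 to 4051, 309 to 3101, 1881 to 3918 and 1150 to 3600, and over omissions from 51 to 530, 2 to 133, 1360 to 3852, 75 to 569, 1266 to 2912 and 349 to 3615, in the same order. Counts of 0 reached at most 794 in Inulin vs Control, 177 in Pectin_PFOS vs Inulin_PFOS, 755 in the inulin interaction and 4 in the pectin interaction over omissions. The 0 calls in Pectin_PFOS vs Inulin_PFOS became up to 648, with the replicate block. Deviations of libraries with the same biological replicate number had correlations of −0.27 to 0.51 (median 0.03, 51 pairs), in 0 of 15 pairs of groups all over 0.1. The titles also carry a sample number, which differs from the replicate number in some libraries. Pairing by that sample number was not examined, here or in the replicate block, so these values do not decide whether samples were paired. Depth limits Retnlb, with at most 1 count in 9 of 22 libraries.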
